A study of Rattus norvegicus with 24 samples.

Results

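A set of 10 genes of the neuromuscular junction and of the response of muscle to lost innervation was followed in the medial gastrocnemius of 24 rats. The members were Runx1, Chrna1, Chrnb1, Chrnd, Chrne, Musk, Myog, Ncam1, Hdac4 and Rapsn. They were taken from the count table by gene symbol, and all 10 were among the 10851 genes of the count table. The rats were male Wistar rats in 4 groups of 6. Control rats received saline and were either sedentary (Sed) or trained on a treadmill (Ex). Rats with cardiac cachexia received a single injection of monocrotaline, which damages the lung circulation and overloads the right ventricle, and were likewise sedentary (CC-Sed) or trained (CC-Ex). Training ran while the disease developed. Monocrotaline rats that died or showed no remodelling of the right ventricle were not part of the study groups, and the ages of the rats are not given in the sources used here. Each library came from the left leg of 1 rat, and rats were not pooled.

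At the neuromuscular junction, the motor nerve releases acetylcholine onto a small, specialised patch of each muscle fibre. Agrin from the nerve acts through Lrp4 on the receptor kinase MuSK, and the scaffold protein rapsyn then clusters the acetylcholine receptors, which are pentamers of alpha, beta, delta and epsilon subunits in adult muscle. When a muscle loses its nerve, the class II deacetylase HDAC4 accumulates, the transcription factors myogenin and RUNX1 rise, and fibres again make receptor subunits and NCAM along their whole length. These are general properties of denervated muscle and not measurements made here.

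The regulatory sequences of 4 members are shown because Chrna1, Chrnd and Chrne encode subunits of one receptor, and Myog encodes a factor that binds E-boxes in such promoters. Promoters of 8 of the 10 members matched by symbol in the RefSeq table of the GRCr8 build. The table held no entry for Ncam1 and Rapsn. The 250 bases before the annotated start are printed 5′ to 3′ on the gene's strand, and capitals mark each E-box (CANNTG), each N-box (CCGGAA, or TTCCGG on the other strand) and each RUNX motif (TGTGGT, or ACCACA on the other strand).
Chrna1 promoter, chr3:78877354-78877603, minus strand: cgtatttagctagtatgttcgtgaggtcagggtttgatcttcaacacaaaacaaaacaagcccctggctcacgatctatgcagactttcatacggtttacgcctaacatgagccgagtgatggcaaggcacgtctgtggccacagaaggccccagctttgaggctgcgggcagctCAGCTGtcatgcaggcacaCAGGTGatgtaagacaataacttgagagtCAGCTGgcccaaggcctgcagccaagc
Chrnd promoter, chr9:95310066-95310315, plus strand: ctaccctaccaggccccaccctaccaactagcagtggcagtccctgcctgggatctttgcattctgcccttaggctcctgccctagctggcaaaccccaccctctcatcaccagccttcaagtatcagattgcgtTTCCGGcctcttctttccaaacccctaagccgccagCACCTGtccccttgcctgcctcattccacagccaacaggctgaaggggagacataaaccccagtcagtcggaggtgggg
Chrne promoter, chr10:55834155-55834404, minus strand: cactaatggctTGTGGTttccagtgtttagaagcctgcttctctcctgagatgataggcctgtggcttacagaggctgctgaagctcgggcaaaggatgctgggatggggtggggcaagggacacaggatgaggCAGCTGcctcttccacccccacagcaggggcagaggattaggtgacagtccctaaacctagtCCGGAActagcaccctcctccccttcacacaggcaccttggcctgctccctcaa
Myog promoter, chr13:48297226-48297475, plus strand: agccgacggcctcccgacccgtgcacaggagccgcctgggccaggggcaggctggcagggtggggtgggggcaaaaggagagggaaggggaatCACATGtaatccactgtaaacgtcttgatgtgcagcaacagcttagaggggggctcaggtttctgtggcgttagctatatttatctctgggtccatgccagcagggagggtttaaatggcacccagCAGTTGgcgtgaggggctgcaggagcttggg
At least 1 E-box was present in 8 of 8 member promoters, against 65.5% of all 33469 promoters of this length. The E-box form CAGCTG, which is included in CANNTG, was present in 4 of the 8 promoters and in 12% of all promoters. Chrna1 had this form 75 and 27 bases before the start. The N-box, the motif bound by the GABP proteins that direct transcription to the nuclei under the nerve ending, was present in Chrnd and Chrne and in 12.6% of all promoters. It began 115 bases before the start of Chrnd and 54 bases before that of Chrne. The RUNX motif was present in Chrne alone among the 8 members, 239 bases before the start, and in 14.5% of all promoters. A match is a description of the letters and not evidence of binding, and the counts were made on another build (mRatBN7.2), so that these starts need not be the ones used for counting.

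Total estimated counts per rat lay between 37816239 and 50350554, and counts of the members ranged from 16 (Chrnd in a CC-Ex rat) to 8197 (Myog in a Sed rat). Values below are CPM, counts scaled to a common library size with TMM factors, and they compare rats for the same gene, not genes with each other. The muscle fibre markers summed to between 104504 and 248951 CPM in every rat, from 7 markers that the table held. The table held 4 of the 9 Schwann cell markers, and it did not hold Mbp, a gene of myelinating cells. On the first principal component of all genes CC-Ex replicate 5 stood apart at 96.5 units, where the next rat, CC-Sed replicate 6, was at 51.7. Sed replicate 5 was the highest of all 24 rats for 7 of the 10 members and in the top 3 for 9. Leaving out one of these 2 rats moved many of the values below, and the value without it stands beside several of them.

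The quasi-likelihood test of edgeR, the main test here, called no member in any comparison. Monocrotaline was compared with saline in sedentary rats (Sed vs. CC-Sed), in trained rats (Ex vs. CC-Ex) and as the mean of both effects over 12 against 12 rats (called the CC average here), with a call at a Benjamini-Hochberg adjusted p under 0.05 over all genes. In Sed vs. CC-Sed edgeR called 0 of 10 members, where it called 6.46% of all genes, and 1 member (Rapsn) had an unadjusted p under 0.05, as did 28.4% of all genes. In Ex vs. CC-Ex 0 of 10 members were called against 0.995% of all genes, and 0 members had an unadjusted p under 0.05 against 22.6% of all genes. In the CC average 0 of 10 members were called against 27.8% of all genes, and 1 (Rapsn) had an unadjusted p under 0.05 against 42.4% of all genes. DESeq2 called 0, 0 and 1 member in these 3 comparisons and limma-voom called 1, 0 and 1, in each case Rapsn. The median Log2FC of the members in the CC average was 0.14, and that of all genes was 0.01. The members' median was not computed without single rats.

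For training, edgeR called 0 of 10 members and 0% of all genes in Sed vs. Ex, in CC-Sed vs. CC-Ex, in the mean of both training effects (the training average) and in the interaction, which is the difference between the trained and the sedentary effect of monocrotaline. DESeq2 and limma-voom also called 0 members in these 4 comparisons. In the training average 2 members, Myog and Runx1, had an unadjusted p under 0.05, as did 1.75% of all genes. In Sed vs. Ex 1 member (Myog) did, against 1.09% of all genes, and 0 did in CC-Sed vs. CC-Ex (2.16% of all genes) and in the interaction (1.42%). In the training average without Sed replicate 5, edgeR gave an unadjusted p under 0.05 for 1 member and 128 of all 10851 genes. Without CC-Ex replicate 5 edgeR did so for 4 members and 1081 genes. With all rats kept, limma-voom did so for 0 members and 902 genes. The median Log2FC of the members in the training average was -0.42 and that of all genes 0.01. The members' median was not computed without single rats. For every member, the ranges of CPM overlapped between the groups in each of the 4 pairwise comparisons. The share of all genes with such overlap was not computed. RNA came from whole pieces of muscle, so that a lower value for fewer cells or nuclei of a kind and for less RNA in each cannot be told apart.

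**Figure D1:**
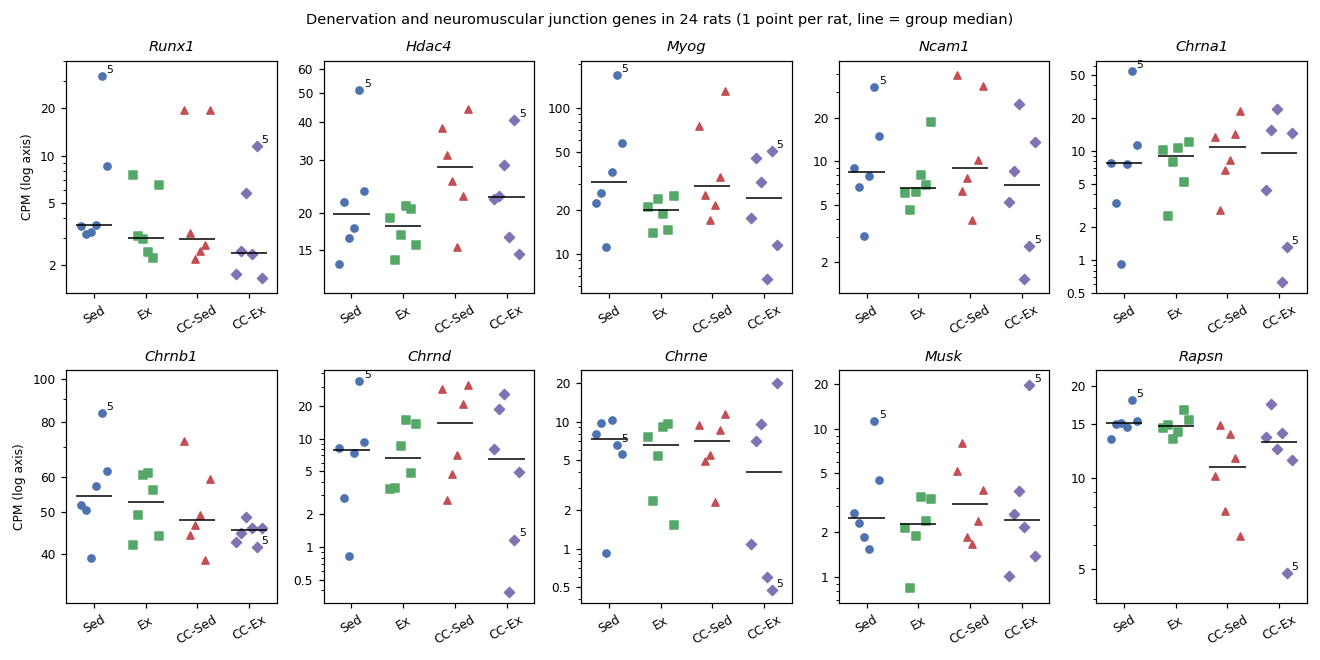
CPM of the 10 members (log axes) in the 6 rats of each group, with 1 point per rat, a line at the group median and a 5 beside replicate 5 of Sed and of CC-Ex. The groups overlap for every gene, and Sed replicate 5 is the highest point of 7 panels.

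Runx1 encodes a transcription factor that rises in denervated muscle and limits its wasting. Its CPM had a lowest value, median and highest value of 3.16, 3.61 and 32.2 in Sed, and of 2.22, 3.01 and 7.55 in Ex. In CC-Sed these were 2.19, 2.95 and 19.6, and in CC-Ex they were 1.67, 2.42 and 11.5. Most rats of every group thus lay at a low level, and single rats stood several-fold above it: Sed replicate 5, CC-Sed replicates 1 and 6, and CC-Ex replicate 5. The Log2FC of Runx1 was -0.04 in the CC average (95% interval -1.06 to 0.97, edgeR adjusted p = 0.955). Between the sedentary groups (Sed vs. CC-Sed) Runx1 had a value of -0.13 (edgeR adjusted p = 0.920), which became 0.91 when Sed replicate 5 was left out and -0.63 when CC-Sed replicate 1 was. The training average of Runx1 was -1.05 (interval -2.08 to -0.03, edgeR adjusted p = 1.00), with 8 of 12 trained rats under the sedentary median. Without Sed replicate 5 the CC average was 0.48 and the training average -0.54, and without CC-Ex replicate 5 they were -0.37 and -1.33.

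Myog encodes myogenin, the muscle regulatory factor that drives receptor subunit transcription after denervation. In Sed rats Myog ran from 11.1 to 168.0 CPM with a median of 31.2, and Ex rats ran from 13.9 to 24.9 CPM with a median of 19.8. Myog in CC-Sed rats spanned 17.1 to 129.2 CPM (median 29.2) and the CC-Ex range 6.74 to 50.1 CPM (median 24.2). The 6 Ex rats were the most alike, and the 3 highest values came from Sed replicate 5 and from CC-Sed replicates 1 and 6. In Sed vs. Ex the Log2FC was -1.46 (standard error, SE, 0.594, adjusted p = 1.00 in edgeR), and in CC-Sed vs. CC-Ex it was -0.89 (SE 0.586, adjusted p = 1.00 in edgeR). The training average was -1.18 (SE 0.417, adjusted p = 1.00 in edgeR), with 9 of 12 trained rats under the sedentary median. Without Sed replicate 5 the Sed vs. Ex value was -0.65 and the training average -0.77. The interaction was 0.57 (interval -1.14 to 2.27), and without Sed replicate 5 it was -0.24. For monocrotaline the CC average of Myog was 0.19 (interval -0.66 to 1.04), and 0.60 without Sed replicate 5.

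Hdac4 encodes the deacetylase that links lost nerve activity to the induction of Myog. In Sed rats Hdac4 ran from 13.5 to 51.4 CPM with a median of 19.7, and Ex rats ran from 13.9 to 21.1 CPM with a median of 18.0. The CC-Sed range for Hdac4 was 15.4 to 44.2 CPM (median 28.4) and the CC-Ex range 14.5 to 40.6 CPM (median 22.5). Both monocrotaline medians were above both saline medians, but the highest single value was that of Sed replicate 5. Hdac4 had a CC average of 0.37 as Log2FC (SE 0.208, adjusted p = 0.178 in edgeR), with 9 of 12 monocrotaline rats above the saline median. Without Sed replicate 5 it was 0.56 (SE 0.174, adjusted p = 0.0252 in edgeR), which is past the threshold, and without CC-Ex replicate 5 it was 0.24. The training average was -0.36 (SE 0.208, adjusted p = 1.00 in edgeR), with 10 of 12 trained rats under the sedentary median, and -0.17 without Sed replicate 5.

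**Figure D2:**
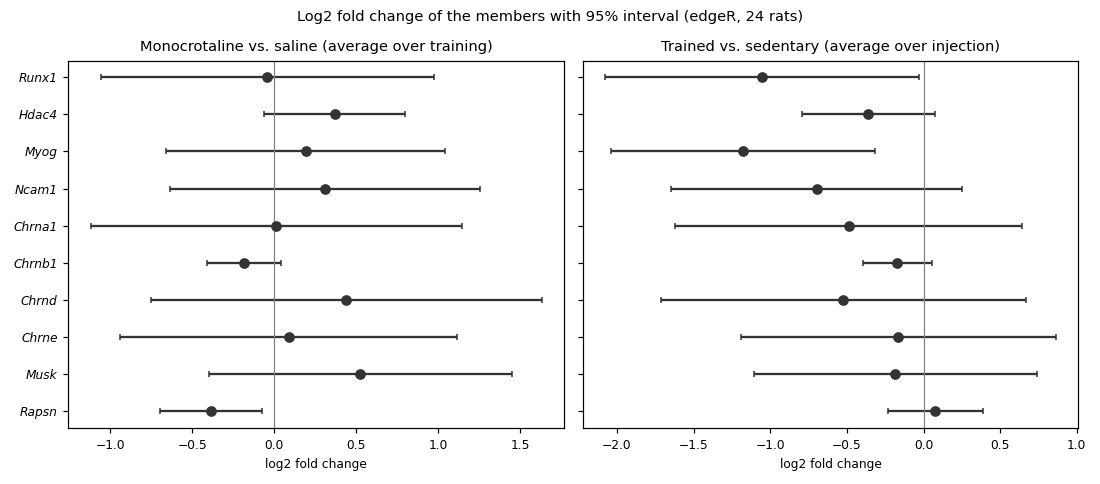
Log2FC of each member with its 95% interval (edgeR, 24 rats), for monocrotaline against saline on the left and for training on the right, each averaged over the other factor. On the left the interval of Rapsn alone excludes 0, and on the right those of Runx1 and Myog do, before adjustment over all genes.

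Chrna1 encodes the alpha subunit of the acetylcholine receptor, which holds the acetylcholine binding site. In Sed rats Chrna1 ran from 0.925 to 53.9 CPM with a median of 7.70, and Ex rats ran from 2.51 to 12.1 CPM with a median of 9.04. For Chrna1 the CC-Sed range was 2.86 to 23.1 CPM (median 10.9) and the CC-Ex range 0.624 to 24.4 CPM (median 9.52). The highest rat (Sed replicate 5) was 86.4-fold above the lowest (CC-Ex replicate 4), while the 4 medians were close together. Chrna1 had a CC average of 0.01 as Log2FC (interval -1.12 to 1.14) and the training average was -0.49 (interval -1.62 to 0.65). Without Sed replicate 5 these were 0.61 and 0.11.

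Chrnd encodes the delta subunit. In Sed rats Chrnd ran from 0.833 to 34.03 CPM with a median of 7.80, and Ex rats ran from 3.40 to 14.9 CPM with a median of 6.69. Chrnd in CC-Sed rats spanned 2.73 to 31.1 CPM (median 14.0) and the CC-Ex range 0.384 to 25.9 CPM (median 6.48). The CC-Sed median was the highest of the 4, and the ratio between the highest and the lowest rat was 88.6-fold. The CC average was 0.44 on the log2 scale (interval -0.75 to 1.63, edgeR adjusted p = 0.579), with 6 of 12 monocrotaline rats above the saline median. It was 0.87 without Sed replicate 5 and 0.16 without CC-Ex replicate 3. The same 3 rats, Sed replicate 3 and CC-Ex replicates 4 and 5, were the lowest 3 of all 24 for both Chrna1 and Chrnd.

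Chrne encodes the epsilon subunit, which replaces the fetal gamma subunit after birth and is transcribed mainly by the nuclei beneath the nerve ending. In Sed rats Chrne ran from 0.925 to 10.4 CPM with a median of 7.27, and Ex rats ran from 1.53 to 9.65 CPM with a median of 6.49. The CC-Sed range for Chrne was 2.32 to 11.6 CPM (median 7.02) and the CC-Ex range 0.469 to 20.2 CPM (median 4.04). Sed replicate 5, which was high for the alpha and delta subunits, had a Chrne value of 6.54 CPM, within the range of the other Sed rats. For Chrne the CC average was 0.09 (interval -0.94 to 1.11) and the training average -0.16 (interval -1.19 to 0.86), and without CC-Ex replicate 5 they were 0.18 and -0.03.

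Chrnb1 encodes the beta subunit, and it varied least among the subunits on the list. In Sed rats Chrnb1 ran from 39.3 to 83.7 CPM with a median of 54.3, and Ex rats ran from 42.1 to 61.1 CPM with a median of 52.6. For Chrnb1 the CC-Sed range was 38.9 to 72.2 CPM (median 47.97) and the CC-Ex range 41.6 to 48.7 CPM (median 45.3). The 4 medians fell in the order Sed, Ex, CC-Sed and CC-Ex, and neighbours in that order overlapped in range. Chrnb1 had a CC average of -0.18 (interval -0.41 to 0.04, edgeR adjusted p = 0.208), with 10 of 12 monocrotaline rats under the saline median, and the training average was -0.17 (interval -0.40 to 0.06). Without Sed replicate 5 these were -0.11 and -0.10. In the GRCr8 annotation Chrnb1 overlaps the end of Zbtb4 and Chrne overlaps Gp1ba. Reads from shared bases could thus have been divided between genes. The counts were made on another build (mRatBN7.2), and whether any reads were so divided was not tested.

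Musk encodes the receptor kinase that organises the junction. In Sed rats Musk ran from 1.55 to 11.4 CPM with a median of 2.52, and Ex rats ran from 0.835 to 3.45 CPM with a median of 2.26. Musk in CC-Sed rats spanned 1.67 to 8.00 CPM (median 3.13) and the CC-Ex range 1.02 to 19.9 CPM (median 2.42). The 5 other CC-Ex rats had at most 3.83 CPM, so that replicate 5 alone held the high value of that group. Trained rats had a monocrotaline effect on Musk of 1.14 as Log2FC (SE 0.639, adjusted p = 0.280 in edgeR) and -0.09 without CC-Ex replicate 5. The sedentary effect was -0.08 (SE 0.628, adjusted p = 0.941 in edgeR), and 0.57 without Sed replicate 5. The interaction was 1.22 (interval -0.63 to 3.07) and 0.02 without CC-Ex replicate 5. The CC average of 0.53 became -0.10 without that rat, so that the direction for Musk rested on it.

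Ncam1 encodes the neural cell adhesion molecule, which lies at the junction and spreads over the fibre after denervation. In Sed rats Ncam1 ran from 3.03 to 32.4 CPM with a median of 8.46, and Ex rats ran from 4.61 to 18.5 CPM with a median of 6.47. The CC-Sed range for Ncam1 was 3.93 to 39.6 CPM (median 8.92) and the CC-Ex range 1.54 to 25.0 CPM (median 6.89). Each group held 1 or 2 rats well above the others. Ncam1 had a CC average of 0.31 (interval -0.64 to 1.26) and the training average was -0.70 (interval -1.65 to 0.25). Without Sed replicate 5 these were 0.60 and -0.41, and without CC-Ex replicate 3 they were 0.02 and -0.99.

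Rapsn encodes rapsyn, the scaffold that holds the receptors in clusters. In Sed rats Rapsn ran from 13.5 to 18.0 CPM with a median of 15.1, and Ex rats ran from 13.4 to 16.7 CPM with a median of 14.8. For Rapsn the CC-Sed range was 6.45 to 14.9 CPM (median 10.9) and the CC-Ex range 4.86 to 17.5 CPM (median 13.1). The saline rats were close together, with standard deviations of 0.14 (Sed) and 0.11 (Ex) on the log2 scale, against 0.47 in CC-Sed and 0.64 in CC-Ex. Sedentary monocrotaline rats had a Log2FC of Rapsn of -0.50 (SE 0.213, adjusted p = 0.130 in edgeR), and for trained ones the value was -0.27 (SE 0.212, adjusted p = 0.430 in edgeR), or -0.12 without CC-Ex replicate 5. The CC average was -0.39 (SE 0.150, adjusted p = 0.0569 in edgeR), with 11 of 12 monocrotaline rats under the saline median. This value was close to the threshold, and its side depended on the model and on single rats. The adjusted p was 0.0404 with DESeq2, 0.0131 with limma-voom and 0.0455 with edgeR and a slow-fibre score as a covariate. It was 0.0474 with edgeR without CC-Ex replicate 5, the lowest rat. The same edgeR test also called Rapsn without CC-Sed replicate 2 or 4 and without CC-Ex replicate 2 or 4, and did not call it in the 19 other fits without 1 rat. Outside the threshold were also upper-quartile scaling (adjusted p = 0.0524 in edgeR), the library number as a covariate (0.0596), the replicate block (0.0533) and a stricter low-count filter (0.0555). In Sed vs. CC-Sed the limma-voom adjusted p was 0.0151. The interaction was 0.23 (interval -0.39 to 0.85), and 0.41 without CC-Ex replicate 5.

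Most members varied widely between rats of the same group. The standard deviation of log2 CPM within groups was 1.19 for Runx1, 1.58 for Chrna1, 1.70 for Chrnd, 1.46 for Chrne, 1.08 for Musk, 1.06 for Myog and 1.20 for Ncam1. These 7 of 10 members were above the 95th percentile of all genes, which was 0.81, and the median over all genes was 0.30. Hdac4 at 0.52, Rapsn at 0.41 and Chrnb1 at 0.27 were under the percentile. Above the percentile were 10 of the 14 other denervation-responsive genes and 4 of the 23 other neuromuscular junction genes (Etv5, Ache, Dok7 and Sntb1). Chrng, which encodes the fetal gamma subunit and neighbours Chrnd on the chromosome, had a standard deviation of 0.10, and only 1.23% of genes had a smaller one. Its CPM lay between 28.04 and 40.7 in all 24 rats. Whether the counts given to Chrng came from transcripts of the gamma subunit was not tested.

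Rats that were high for one member tended to be high for several others. With the group means removed, 21 of the 45 pairs of members had a permutation adjusted p under 0.05 for Pearson's r (100000 shuffles of rats within groups, two-sided, adjusted over the 45 pairs), all 21 with a positive r, and 16 of them also passed with Spearman's rho. The share of related pairs among all genes was not computed, so that this count cannot be called particular to the members. In the count without 1 rat, 15 pairs passed without Sed replicate 3 and 28 without CC-Ex replicate 5. The relation of Chrna1 and Chrnd had an r of 0.92 (permutation p = 1e-05, the smallest the shuffles can give, adjusted p = 0.000225) and a rho of 0.88 (permutation p = 2e-05, adjusted p = 0.00030). Without the 2 rats farthest from the median of Chrna1, r was 0.88. It was 0.92 over the 12 saline rats and 0.93 over the 12 monocrotaline rats. Ncam1 followed both subunits, with an r of 0.86 to each and 0.82 to Chrna1 and 0.81 to Chrnd without the 2 farthest rats.

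Relations past the threshold also joined Runx1, Myog, Hdac4 and Musk. Runx1 and Myog had an r of 0.83 (permutation p = 4e-05, adjusted p = 0.00045) and a rho of 0.81 (permutation p = 0.00011, adjusted p = 0.00124), and r was 0.76 without Sed replicate 5 and CC-Sed replicate 1. Hdac4 had an r of 0.79 with Runx1, 0.80 with Myog and 0.77 with Musk, and these were 0.70, 0.69 and 0.63 without the 2 farthest rats. Myog was related to both sets, with an r of 0.66 to Chrna1 (adjusted p = 0.0129 by permutation) and of 0.70 to Chrnd (adjusted p = 0.0080 by permutation). For Runx1 the r to Chrna1 was 0.39 and to Chrnd 0.38, neither past the threshold. Runx1 and Ncam1 were past it (r = 0.57, adjusted p = 0.0281 by permutation) but not by rho, and r was 0.40 without the 2 farthest rats. Chrnb1 was past it with Chrna1, Chrnd, Ncam1, Myog and Hdac4 (r between 0.52 and 0.59), and by rho with Chrnd and Ncam1 alone. It was not past it with Runx1, Chrne, Musk or Rapsn. Chrne had an r of 0.70 with Chrna1 and of -0.01 with Runx1 (permutation p = 0.959).

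Rapsn had no relation past the threshold with any of the 9 other members. Its r with Runx1 was 0.58 over the 12 saline rats and -0.61 over the 12 monocrotaline rats, and with Hdac4 it was 0.72 and -0.61. For Chrna1 and Musk the corresponding values were 0.82 and -0.29. These differences between the saline and the monocrotaline rats were not tested, and without CC-Ex replicate 5 the r over all rats changed from -0.38 to -0.21 for Rapsn and Runx1 and from 0.15 to 0.40 for Chrna1 and Musk.

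**Figure D3:**
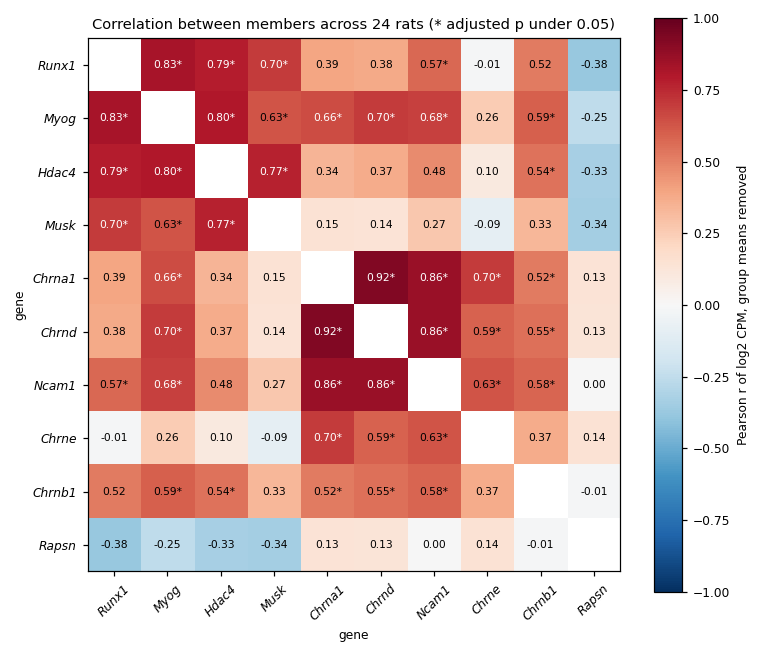
Pearson r of log2 CPM between each pair of members over 24 rats with the group means removed; blue is negative, red is positive, and an asterisk marks an adjusted permutation p under 0.05. Runx1, Myog, Hdac4 and Musk form a red block, Chrna1, Chrnd, Ncam1 and Chrne another, and the row of Rapsn has no asterisk.

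The genes of the whole table that followed each member most closely were taken as the 3 with the highest r, and no test is given because they were chosen for it. Runx1 was followed by Ppp1r14c (r = 0.93), Trim37 and Tuba1c, and Myog by Eda2r (r = 0.88), Snrpel1 and Atp6v0d1. Hdac4 was followed by Tmem64 (r = 0.88), Emc3 and Haus6, and Musk by Ppia (r = 0.83), Capns1 and Nom1. The 2 closest genes to Chrna1 were themselves members, Chrnd (r = 0.92) and Ncam1 (r = 0.86), ahead of Gramd2b (r = 0.85). Chrnd was followed by Chrna1, Iah1 (r = 0.90) and Gramd2b (r = 0.90), and Ncam1 by Disp2 (r = 0.87), Chrna1 and Arhgap22. Chrnb1 had the weakest neighbours, which were LOC100360828 (r = 0.77), Atp6ap1 and Dnm2. The gene closest to Chrne was Etv5 (r = 0.85), an ETS transcription factor of the nuclei under the nerve ending, followed by Nkd2 and Phldb2. Rapsn was followed by Plaat1 (r = 0.93), Hs2st1 and Btbd6.

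**Figure D4:**
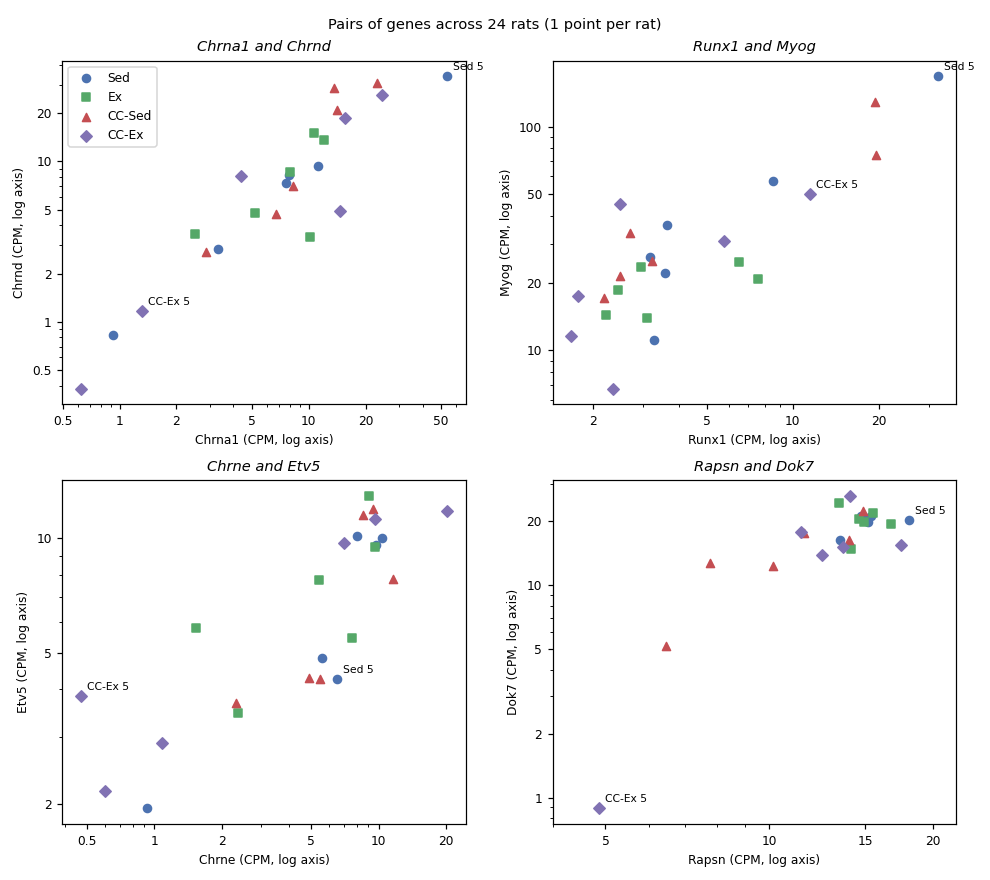
CPM of 4 pairs of genes (log axes) in 24 rats, coloured by group, with Sed replicate 5 and CC-Ex replicate 5 named. Chrna1 and Chrnd span the widest range and fall close to a line, and in the panel of Rapsn and Dok7 the lowest point is CC-Ex replicate 5.

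Each member was also set against 37 other genes of the same biology, in 370 relations adjusted together, and those named here were picked after their values were seen. Runx1 had a positive relation past the threshold with 7 of the 14 other denervation-responsive genes, Myog and Hdac4 with 6 each, and Chrne with 0. With the 23 other junction genes there were also negative relations past the threshold, 4 each for Myog and Hdac4 and 3 each for Runx1 and Musk. The share of all genes so related was not computed. The highest was that of Runx1 and Gadd45a, a stress gene that acts upstream of atrophy genes, with an r of 0.88 (adjusted p = 0.00185 by permutation) and a rho of 0.79 (adjusted p = 0.0074 by permutation). Chrne and Etv5 had an r of 0.85 (adjusted p = 0.00247 by permutation) and a rho of 0.84 (adjusted p = 0.00493 by permutation), and r was 0.85 without the 2 rats farthest from the median of Chrne. Rapsn had an r of 0.87 with Dok7, the adaptor that activates MuSK (adjusted p = 0.0157 by permutation), which was 0.58 without the 2 farthest rats. With Ache, the acetylcholinesterase of the synaptic cleft, its r was 0.84 (adjusted p = 0.0280 by permutation), and 0.52 without those rats. Rapsn was negatively related to Fbxo30 (r = -0.82) and Trim63 (r = -0.77), both ubiquitin ligases of atrophying muscle, and these became -0.57 and -0.51 without those rats. By rho, with the same adjustment, Dok7 passed (rho = 0.73, adjusted permutation p = 0.0291) and Ache (0.0606), Fbxo30 (0.0606) and Trim63 (0.0661) did not.

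Of the 14 other denervation-responsive genes, 8 were called under monocrotaline. In the CC average 6 of the 14 were higher and 2 lower (edgeR adjusted p under 0.05), against 17.2% of all genes higher and 10.6% lower, and their median Log2FC was 0.00. The list was chosen with earlier results of these data known, so that its share cannot be read as an independent result. Fbxo32 and Trim63, the atrogin-1 and MuRF1 ubiquitin ligases, rose by a Log2FC of 2.82 (edgeR adjusted p = 0.000377) and 2.40 (edgeR adjusted p = 0.00152), each above the saline median in 11 of 12 monocrotaline rats. Ampd3, an AMP deaminase induced in wasting muscle, rose by 3.05 (edgeR adjusted p = 0.00632), from a saline median of 12.2 CPM to a monocrotaline median of 41.8 CPM. It rose by 2.09 without CC-Ex replicate 5, which held 481.4 CPM. Fbxo30 rose by 1.33 (0.78 without that rat), the cell cycle inhibitor gene Cdkn1a by 1.53 and Hdac5 by 0.27. Myod1, the sister factor of Myog, fell by 1.38 (edgeR adjusted p = 0.0311) with 10 of 12 monocrotaline rats under the saline median, and Hdac9, a repressor of receptor transcription in innervated muscle, fell by 0.76 (edgeR adjusted p = 0.0221). When each of the 24 rats was left out in turn, Cdkn1a was called 10 times (its Log2FC was 0.93 without CC-Ex replicate 5) and Myod1 18 times. Gadd45a had a Log2FC of 1.22 (edgeR adjusted p = 0.0605) and was not called. In Sed vs. CC-Sed 2 of the 14 (Fbxo32 and Trim63) were called higher against 4.3% of all genes, and in Ex vs. CC-Ex 1 (Fbxo32) was, against 0.875%. With each of the 12 sedentary rats left out in turn Fbxo32 was called 9 times and Trim63 2 times, and with each of the 12 trained rats left out Fbxo32 was called 4 times.

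Of the 23 other neuromuscular junction genes, 20 were not called. In the CC average 0 were higher and 3 were lower, where 10.6% of all genes were lower, and their median Log2FC was -0.07. Chrng fell by 0.20 (edgeR adjusted p = 0.00702), Crk, an adaptor downstream of MuSK, by 0.25 (edgeR adjusted p = 0.0226), and Sntb2, a syntrophin of the dystrophin complex, by 0.44 (edgeR adjusted p = 0.0357). With each rat left out in turn, Sntb2 was called 15 times of 24, and Chrng and Crk 24 times. The source of the Chrng counts was not tested, so that its value need not be that of the fetal subunit. In the training comparisons and the interaction edgeR called 0 genes of both lists, as it called 0% of all genes.

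**Figure D5:**
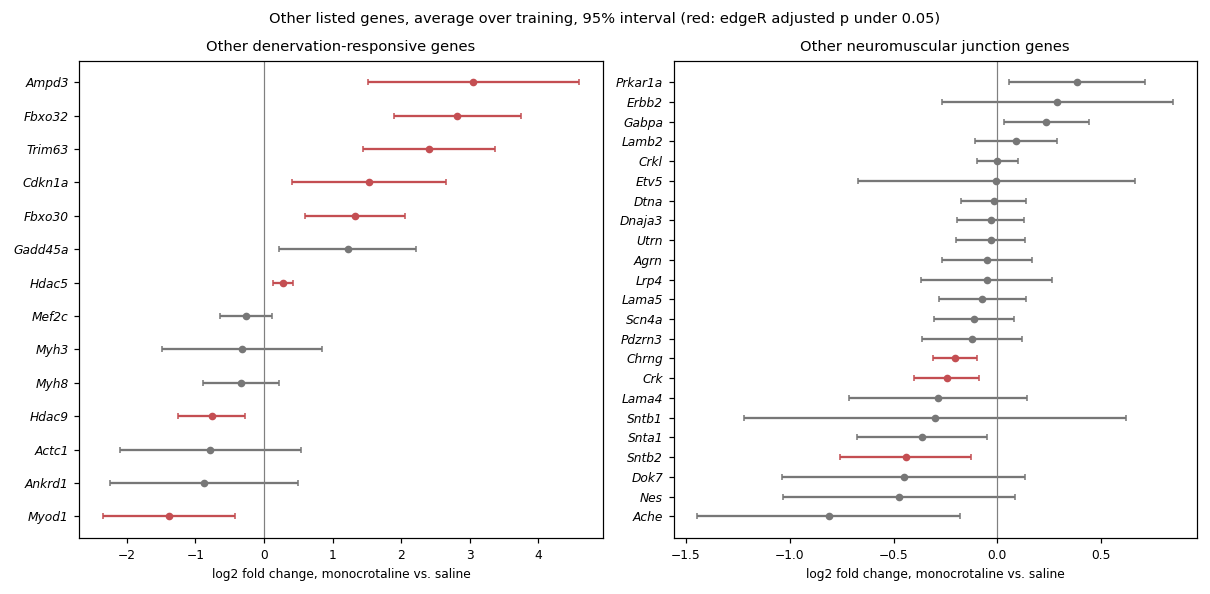
Log2FC in the CC average with 95% intervals for the 14 other denervation-responsive genes on the left and the 23 other neuromuscular junction genes on the right, with called genes in red. Ampd3, Fbxo32 and Trim63 lie above 2 on the left, and on the right the called genes Chrng, Crk and Sntb2 lie between -0.20 and -0.44 (the axes differ in scale).

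Markers of other cells and of fibre type were set beside the members in 90 relations with the group means removed. The summed CPM of the 4 Schwann cell markers in the table lay between 23.1 and 75.3 for Sed, 29.8 and 150.5 for Ex, 22.3 and 71.5 for CC-Sed rats, and 16.8 and 46.5 for CC-Ex rats, and 0 of the 4 were called in the CC average. Of the fibroblast markers 2 of 5 were lower in the CC average (Col1a1 and Col3a1, median of the 5 -0.99), as were 1 of 4 regenerating fibre markers (Myod1) and 1 of 3 tendon markers (Scx). Of 5 satellite cell markers 1 was higher (Myf5) and 1 lower (Cd34), and no macrophage, muscle fibre or slow-fibre marker was called. The summed slow-fibre markers ranged from 685 to 11812 CPM over all rats. Tnnc1, the slow troponin C gene, was at 0.375 CPM in CC-Ex replicate 5, but it was also at 6.62 CPM in Sed replicate 5, 7.31 in Sed replicate 3, 3.74 in Ex replicate 1, 9.31 in CC-Sed replicate 2 and 0.504 in CC-Ex replicate 4, where the group medians were 138.3 CPM for Sed, 275.1 for Ex, 712.7 for CC-Sed and 487.9 for CC-Ex. Rats with few slow-fibre transcripts thus occurred in every group and included both rats that stood apart. A single relation passed the adjustment, that of Chrnd with the summed muscle fibre markers (r = -0.72, adjusted p = 0.0072 by permutation, rho = -0.77), with an r of -0.68 without the 2 farthest rats. That sum held Acta1, Ckm, Myh2, Myh4, Tnnt3, Pvalb and Actn3 but not Myh7, so that fibre amount and fibre type cannot be told apart in it. It reached 248951 CPM, and so large a part of the counts can lower the CPM of other genes. The TMM factors are meant to offset this, and whether they did so fully was not tested. What the relation reflects was not tested. Chrnd had an r of 0.69 with the slow-fibre score (adjusted p = 0.0903 by permutation) and Chrna1 of 0.55. With that score as a covariate the CC average was -0.31 for Chrnd and -0.45 for Chrna1, where it had been 0.44 and 0.01. The part of these markers in the members' values was not tested.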

How the data were processed

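RNA was sequenced from 24 rats, 1 library each, grouped and numbered as the labels give them. After read trimming, transcripts of the mRatBN7.2 build were quantified by the authors with Salmon and summed per gene. Deposited values are estimated counts, whole and unscaled, of 10851 genes with a lowest count of 10. Whether differences between rats or depth limited precision was not tested. Groups were compared by edgeR 4.0.16 under R 4.3.3 (TMM, filtering by group, which removed 0 genes, and a quasi-likelihood model of the 4 groups). The paper's methods name DESeq2 and no block. Alternatives were DESeq2 1.42.0, limma-voom 3.58.1 with sample weights, upper-quartile scaling, other low-count filters, covariates, the replicate number as a block, only the rats compared, and each rat left out. Correlations used log2 CPM with a prior count of 2. Models were tested on simulated data. The members and lists were chosen with earlier results of these data known. The text names all members, every gene of both other lists that was called in any comparison, and the 3 genes closest to each member. The replicate numbers join different animals. Residuals of same-numbered rats had mean correlations between -0.23 and 0.09, which gave no clear sign of pairing. Pairing was not tested, and the labels do not say what the numbers mean. The most similar pair of rats in a group differed by a chi-square of 43.8 per degree of freedom.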

Additional observations from a re-analysis of the deposited data

Results flagged for a closer look

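Of 40 sets of 6 rats (10 members in 4 groups), 8 held a rat whose gap to the nearest other rat was over 0.625 of the group's range, where chance flags about 1 in 20 sets of normally distributed values. CPM are skewed to high values, and the rate for them was not measured. Sed replicate 5 was the rat in 6 of them, at 32.2 CPM for Runx1 (next highest 8.54), 53.9 for Chrna1 (next 11.2), 34.03 for Chrnd (next 9.36), 11.4 for Musk (next 4.55), 168.0 for Myog (next 56.97) and 51.4 for Hdac4 (next 23.7). CC-Ex replicate 5 was at 19.9 CPM for Musk (next 3.83). Ex replicate 6 was at 18.5 CPM for Ncam1 (next 8.03). The sets are not independent, since the members were related to each other across rats.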

How the results depend on the processing

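Without 1 rat at a time, the number of members called stayed at 0 in every comparison except the CC average, where it was 0 to 1. In the CC average 1 member was called with DESeq2, with limma-voom and with the slow-fibre score as a covariate, and in Sed vs. CC-Sed 1 was called with limma-voom. In the CC average the Log2FC of Chrna1 was -0.047 with upper-quartile scaling. With the slow-fibre score it was 0.14 for Runx1, -0.45 for Chrna1, -0.31 for Chrnd, -0.27 for Chrne and -0.049 for Ncam1, and with the library number it was 0.34 for Runx1. With limma-voom the training average was 0.11 for Chrna1 and 0.056 for Chrnd. For Musk in Sed vs. CC-Sed, the value was 0.25 with limma-voom, 0.38 with the slow-fibre score and 0.48 with the library number, and for Runx1 in that comparison it was 0.0013, 0.46 and 0.26. With the replicate number as a block it was 0.33 for Musk and 0.045 for Runx1 in that comparison and 0.015 for Runx1 and -0.12 for Chrne in the CC average, and the block called 0 members in every comparison. No pairing follows from the numbers, and 0 to 2 of 6 rats correlated best with their own number. The cause of these changes was not tested.

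Without single rats the CC average ranged from -0.37 to 0.48 for Runx1, -0.22 to 0.61 for Chrna1, -0.30 to 0.21 for Chrne, -0.10 to 0.85 for Musk and -0.10 to 0.60 for Myog. The training average ranged from -0.73 to 0.11 for Chrna1 and -0.78 to 0.14 for Musk. Runx1 ranged from -0.63 to 0.91 and Musk from -0.43 to 0.57 in Sed vs. CC-Sed, and Musk from -0.089 to 1.35 in Ex vs. CC-Ex, and the interaction of Myog from -0.24 to 1.11. The number of related pairs was 20 to 29 under other settings and 15 to 28 without 1 rat. Of 38 member and comparison values not given singly, 18 changed sign under another model and 23 without 1 rat, and 0 passed the threshold.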

Other observations

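Ache, the acetylcholinesterase gene, was outside the rule for named genes and was picked after its values were seen. Its CPM lay between 34.05 and 55.3 in the 6 Sed rats and between 6.22 and 31.98 in the 6 CC-Sed rats, with no overlap, and between 39.8 and 62.1 in Ex and 2.96 and 68.2 in CC-Ex, which overlapped. How many of all genes also had no overlap was not computed. The Log2FC in Sed vs. CC-Sed was -1.14 (edgeR adjusted p = 0.0986), where 6.46% of all genes were called, and that in the CC average was -0.81 (edgeR adjusted p = 0.0507).

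CC-Ex replicate 5 was the highest of all 24 rats for Musk and among the lowest 3 for 6 of the 10 members. CC-Ex replicate 4 was the lowest for 4 members. Sed replicate 3 was among the lowest 3 for 6 members, although it lay within the saline rats on the first principal component.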
